A study of Caenorhabditis elegans with 2 samples.

Results

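The nuclear hormone receptor genes of Caenorhabditis elegans described here are the protein-coding genes whose symbol in the WBcel235 annotation is nhr- followed by a number. There were 269 of them among the 19973 protein-coding genes of the 6 chromosomes. They were examined in a ChIP-seq experiment on ALR-1, an aristaless-related homeodomain protein that acts in the differentiation of neurons. No nhr gene had a reproducible ALR-1 peak in reach, beside 1.26% of other protein-coding genes. A region among the strongest 3000 of each replicate was in reach of 8 members (2.97%, against 5.99% of other genes). At 6 of these members such regions of the 2 replicates lay within 200 bp of each other. The median best rank of the family was behind that of other protein-coding genes in replicate 1 and close to it in replicate 2. Chromosome V carries 62.1% of the members.

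Nuclear receptors are transcription factors with a zinc finger DNA-binding domain and a domain that in many members binds a small lipophilic ligand. The family is greatly expanded in nematodes, and most C. elegans members derive from an ancestor related to HNF4, a vertebrate receptor of liver and gut. The members with a known role act mainly in fat metabolism, responses to food and toxins, moulting and developmental timing. Most of the others have no known ligand.

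The animals were L1 larvae of both sexes, 6 hours old, starved after bleaching, and of strain OP362, whose genotype is unc-119(tm4063) III; wgIs362. The line carries an integrated transgene for ALR-1 with GFP and FLAG at its C-terminus, and chromatin was precipitated with an antibody against GFP. There was 1 group with 2 biological replicates, so nothing can be compared over conditions, and no untagged or control sample was analysed here. Chromatin came from whole animals, so signal from the cells that express ALR-1 cannot be told apart from signal of any other cell, and the tagged copy is a transgene and not the native locus.

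Each replicate has a list of 30000 regions, mixtures of peaks and background, and a further list of 30000 came from the pooled replicates. Regions were ranked within each list by the signal value deposited by the authors, rank 1 being the strongest. The lowest signals were 21.8 in replicate 1, 23.3 in replicate 2 and 42.2 in the pooled list, and signals are not comparable between lists. A final list of 182 peaks had passed a test of reproducibility between replicates, the irreproducible discovery rate (IDR). A summit, the centre point of a region, was in reach of a gene when it lay inside the gene or up to 1500 bp upstream of its 5′ end, and the best rank among these is the gene's best rank. A gene with no summit in a list is only not listed there, which does not give it a signal of 0. Read depth is unknown from lists of this kind.

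Taken as a family, the nhr genes had no IDR peak in reach, with 0 of 269 genes and an upper 95% limit of 1.36% (exact binomial). Among the other 19704 protein-coding genes 1.26% had one, which is below that limit, so a lower share was not detectable with a family of this size. A summit in both replicate lists was in reach of 145 nhr genes (53.9%, exact 95% interval 47.75 to 59.97%), beside 56.1% of the other genes. A further 78 of the 269 members had a summit in 1 replicate, beside 5021 of the 19704 other genes. None of the 3 lists had a summit for 43 members (16.0%), beside 17.2% of other genes.

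Strong regions were taken as the top 1000 and the top 3000 of each list. In replicate 1, 8 nhr genes had a best rank in the top 1000 (2.97%, against 5.66% of other genes) and 22 in the top 3000 (8.18%, interval 5.20 to 12.1%, against 14.5%). In replicate 2 the counts were 14 in the top 1000 (5.20%, against 5.55%) and 38 in the top 3000 (14.1%, against 13.8%). The pooled list gave 9 in the top 1000 (3.35%, against 5.68%) and 33 in the top 3000 (12.3%, interval 8.60 to 16.8%, against 14.2%). Both replicates had a top 1000 rank for 2 nhr genes (0.74%, against 1.76%) and a top 3000 rank for 8 (2.97%, interval 1.29 to 5.78%, against 5.99%). The top 3000 share was thus below that of other genes in replicate 1 and in both replicates together, while in replicate 2 it was not. Both top 3000 intervals leave out the other genes' share. They include the share that other genes of the same chromosomes would give, 11.6% in replicate 1 and 4.59% in both replicates. The top 1000 intervals, 1.29 to 5.78% in replicate 1 and 0.09 to 2.66% in both replicates, include the other genes' share. Members that lie side by side can share a summit, so the genes are not independent and the intervals cover counting error only.

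The median best rank, over genes with a summit, was 11522 for nhr genes and 9402 for other genes in replicate 1. In replicate 2 the medians were 9558.5 and 9482, and in the pooled list 10839 and 9547. The replicates therefore differed in how far the family lay behind. The number of summits was 2.71, 2.99 and 2.83 per 10 kb searched in replicate 1, replicate 2 and the pooled list, beside 3.22, 3.16 and 3.21 for other genes. The best ranks of the 145 members found in both replicates had a Spearman correlation of 0.356 between replicates, across genes, and those of other genes 0.355. The best summits of the replicates lay within 200 bp of each other for 61 of the 145 (42.1%) and for 39.4% of other genes found in both.

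**Figure D1:**
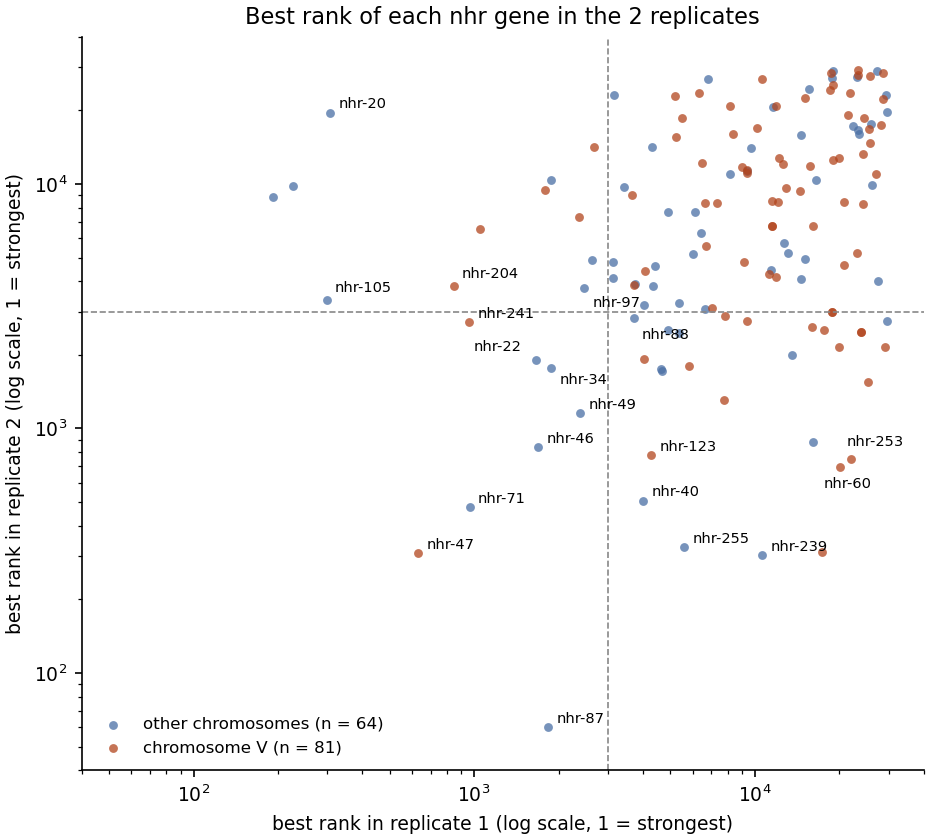
Best rank of each of the 145 nhr genes with a summit in reach in both replicates, replicate 1 on the horizontal and replicate 2 on the vertical log axis, coloured by chromosome V (81 genes) or other chromosomes (64 genes), with dashed lines at rank 3000. The 8 genes at the lower left have a top 3000 rank in both, and nhr-87 has the strongest rank in replicate 2, 60.

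The best-ranked members were named by the worse of their replicate ranks. First was nhr-47, with a best rank of 630 in replicate 1, 309 in replicate 2 and 970 in the pooled list. Its replicates did not point to 1 place: the replicate 1 summit lay in an intron 418 bp from the 5′ end and the replicate 2 summit in an intron 3649 bp from it. The first of these, which is also the pooled summit, is in reach of the neighbour dnj-19 as well, and a further replicate 1 summit in reach of nhr-47, of rank 1203, lies in a coding exon of dnj-19. Next was nhr-71, with ranks of 964, 478 and 340 and replicate signals of 46.4 and 54.9. Here both replicate summits lay in a coding exon, 1 bp apart. These are the 2 members with a top 1000 rank in both replicates.

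The other 6 members with a top 3000 rank in both replicates followed. The ranks of nhr-46 were 1688, 842 and 905 in replicate 1, replicate 2 and the pooled list. Those of nhr-87 were 1838, 60 and 310, the strongest nhr rank in replicate 2 and in the pooled list. The ranks of nhr-34 were 1880, 1773 and 1772, and those of nhr-22 were 1667, 1910 and 1160. The HNF4-like receptor gene nhr-49, whose product activates genes of fat breakdown and desaturation, had 2393, 1153 and 604. The last was nhr-241 with 961, 2720 and 1070. Just outside the top 3000 in 1 replicate came nhr-105, nhr-88, nhr-97 and nhr-204, with replicate ranks of 298 and 3358, 3702 and 2822, 2472 and 3754, and 846 and 3817. The pooled list had no summit at the nhr-204 place found in both replicates, and its best pooled rank, at another place, was 21547.

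Some strong pooled ranks went with a strong rank in replicate 2 alone. Of the 9 members in the pooled top 1000, nhr-40, nhr-239, nhr-255 and nhr-123 had ranks of 507, 304, 327 and 781 in replicate 2, but of 3995, 10606, 5596 and 4262 in replicate 1. All 4 had worse ranks in replicate 1. The lowest of the 9 was nhr-47 at 970, and the next member, nhr-281, had rank 1021.

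Other members were strong in 1 replicate only. The neighbours nhr-148 and nhr-263 shared 1 summit of rank 379 in replicate 2, with no summit in replicate 1. The ranks of nhr-253 were 21944 in replicate 1 and 753 in replicate 2, and those of nhr-60 were 20162 and 697. The converse held for nhr-20, with 307 in replicate 1 and 19600 in replicate 2. It also held for nhr-3, named after its values were seen, with 227 in replicate 1 and 9846 in replicate 2. In all, 20 members had a top 1000 rank in at least 1 replicate (7.43%, against 9.45% of other genes) and 2 in both.

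**Figure D2:**
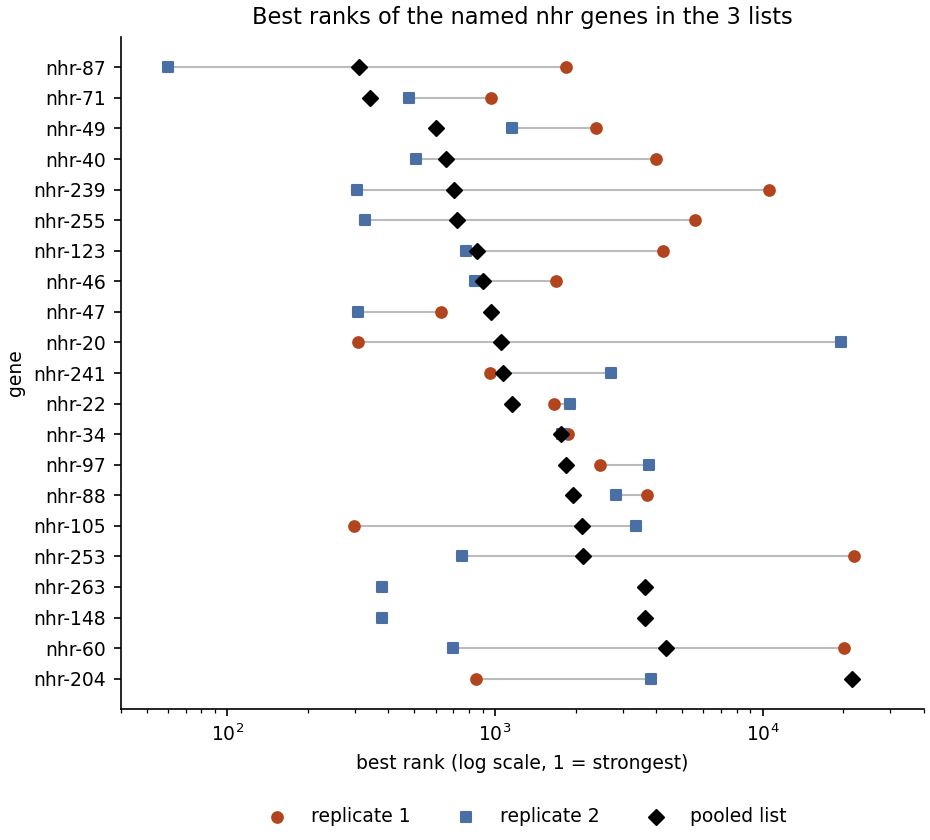
Best rank on a log axis of the 21 named nhr genes in replicate 1 (circles), replicate 2 (squares) and the pooled list (diamonds), ordered by the pooled rank, a grey line joining the replicates. The lines of nhr-239, nhr-20, nhr-253 and nhr-60 are long, and nhr-148 and nhr-263 have no replicate 1 point.

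Agreement in position was then asked for, a summit in each replicate within 200 bp. Of 339 distinct replicate 1 summits in reach of nhr genes, 155 had such a partner in replicate 2 (45.7%, interval 40.3 to 51.2%), beside 43.8% of those of other genes. Both summits were in the top 3000 at 6 nhr places, 1.77% of the summits against 2.46%. These were at nhr-71, nhr-87, nhr-22, nhr-46, nhr-49 and nhr-241, with the replicate summits 1, 179, 32, 5, 36 and 4 bp apart. Where only the nearest replicate 2 summit counted as the partner, nhr-87 dropped out and 5 places were left, 1.47% against 2.39%. The place at nhr-46 had ranks of 1688 and 2156, since its best replicate 2 summit lay elsewhere in the gene. At nhr-87 the replicate 2 summit nearest to the replicate 1 summit of rank 1838 had rank 16377, and the one of rank 60 lay 179 bp away. At the nhr-47 place of rank 630 in replicate 1 the replicate 2 partner had rank 4820. The best replicate summits of nhr-34 were 4451 bp apart, and each had a weak partner, of rank 8529 in replicate 2 and 14167 in replicate 1.

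The DNA at these places is shown first for 3 of the 6 positions strong in both replicates, as the pooled summit with 100 bp on either side, on the plus strand of ce11. They lie at chrX:13750064-13750264 around a summit in a coding exon of nhr-71, at chrII:6448569-6448769 in an intron of nhr-22, and at chrV:18698956-18699156 upstream of nhr-241. None of these 3 holds TAATTA, the core sequence that many homeodomain proteins bind, which reads the same on both strands. Of the other positions strong in both replicates, the pooled windows at nhr-87 and nhr-49 hold it and that at nhr-46 does not. At nhr-87 the replicate 1 summit of rank 1838 had TAATTA within 100 bp, but the replicate 2 summit of rank 60 did not.
nhr-71: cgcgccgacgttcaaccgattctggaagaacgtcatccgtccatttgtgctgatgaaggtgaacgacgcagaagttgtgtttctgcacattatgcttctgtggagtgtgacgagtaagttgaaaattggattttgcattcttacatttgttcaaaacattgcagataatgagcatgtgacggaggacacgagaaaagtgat
nhr-22: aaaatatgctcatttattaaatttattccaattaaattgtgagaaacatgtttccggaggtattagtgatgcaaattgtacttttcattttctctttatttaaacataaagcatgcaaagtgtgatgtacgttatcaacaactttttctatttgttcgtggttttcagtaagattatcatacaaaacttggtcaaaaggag
nhr-241: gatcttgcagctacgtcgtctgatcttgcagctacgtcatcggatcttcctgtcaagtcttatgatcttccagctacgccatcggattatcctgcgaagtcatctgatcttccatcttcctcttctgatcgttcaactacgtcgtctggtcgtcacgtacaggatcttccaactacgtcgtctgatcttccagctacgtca
The nhr-22 sequence has a GC content of 28.4%, that of nhr-71 43.8% and that of nhr-241 48.8%. The nhr-241 sequence is a tandem repeat: 61.1% of its bases equal the base 21 bp further on.

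Of the 35 distinct top 3000 pooled summits in reach of nhr genes, 6 held TAATTA within 100 bp (17.1%, interval 6.56 to 33.6%). The share was 8.24% at top 3000 summits of other genes and 10.4% over all 30000 regions, both within that interval. The corresponding nhr counts were 3 of 26 (11.5%) in replicate 1 and 6 of 38 (15.8%) in replicate 2, against 7.34% and 8.64%. Below rank 3000 the pooled share was 8.60% for nhr summits. The difference is within the counting error of a set this small. Sequences are shown for 4 of the 6, chosen because they hold TAATTA, which is in capitals. They lie in introns of nhr-87 (chrIV:1624561-1624761), nhr-40 (chrX:2594397-2594597) and nhr-47 (chrV:5508802-5509002, the place of its best replicate 2 summit), and 980 bp upstream of nhr-105 (chrIV:7049076-7049276).
nhr-87: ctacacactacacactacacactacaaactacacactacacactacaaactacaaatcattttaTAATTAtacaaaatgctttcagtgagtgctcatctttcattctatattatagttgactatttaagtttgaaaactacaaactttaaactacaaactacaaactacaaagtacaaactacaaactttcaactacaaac
nhr-40: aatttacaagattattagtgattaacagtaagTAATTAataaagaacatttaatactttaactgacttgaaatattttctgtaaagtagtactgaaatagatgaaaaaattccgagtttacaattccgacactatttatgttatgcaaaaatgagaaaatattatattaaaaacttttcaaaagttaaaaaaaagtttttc
nhr-47: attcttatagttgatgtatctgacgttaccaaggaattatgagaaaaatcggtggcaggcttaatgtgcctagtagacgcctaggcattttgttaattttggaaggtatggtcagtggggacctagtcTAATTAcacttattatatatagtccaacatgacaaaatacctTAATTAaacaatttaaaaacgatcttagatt
nhr-105: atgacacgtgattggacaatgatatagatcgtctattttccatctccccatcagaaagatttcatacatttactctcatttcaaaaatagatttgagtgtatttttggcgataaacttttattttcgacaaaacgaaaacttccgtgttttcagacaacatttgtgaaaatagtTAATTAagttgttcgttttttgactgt
The motif centre nearest to the summit lay 33.5 bp from it at nhr-87, 65.5 bp at nhr-40, 30.5 bp at nhr-47, which has 2 copies, and 76.5 bp at nhr-105. At the places not shown, the motif centre lay 10.5 bp from the summit at nhr-49 and 60.5 bp at nhr-146. A match of these letters is not a measured binding site. In the nhr-87 sequence the motif stands between runs of a short tandem repeat, in which 64.4% of bases equal the base 7 bp further on.

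Repeats of this kind were counted at all summits, as windows in which at least 60% of bases equal the base at a fixed lag. They made up 3 of the 35 top 3000 pooled nhr summits (8.57%), namely nhr-87, nhr-241 and nhr-70, with 87.9% equal at a lag of 19 bp at nhr-70. The share was 1.01% of the top 3000 summits of other genes and 0.577% of the whole pooled list. Whether reads map uniquely to such sequence is not recorded in the lists, and the part of repeats in these ranks was not tested. The measure and its threshold were chosen after seeing the nhr-241 and nhr-87 sequences, so 2 of the 3 are not independent of that choice.

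The strong summits of nhr genes were then placed by annotation. In the pooled list, 7 of 35 were in a coding exon (20%, interval 8.44 to 36.9%), against 51.5% for other genes. In replicate 1 the count was 9 of 26 (34.6%, interval 17.2 to 55.7%, against 54.7%) and in replicate 2 it was 13 of 38 (34.2%, interval 19.6 to 51.4%, against 46.9%), so in each replicate alone the interval included the other genes' share. Introns held 15 of the 35 pooled summits (42.9%, interval 26.3 to 60.6%, against 29.5%). Sequence outside genes held 11 (31.4%, interval 16.9 to 49.3%, against 12.7%), but 19.2% against 10.8% in replicate 1 and 18.4% against 15.5% in replicate 2, where the intervals included the other genes' share. Their GC content was 35.9 ± 8.20% (SD, 35 summits), against 39.2 ± 7.91% (2585 summits). Coding sequence made up 29.8% of the sequence searched for nhr genes and 31.4% for other genes. The comparison of strong summits was chosen after seeing the data.

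**Figure D3:**
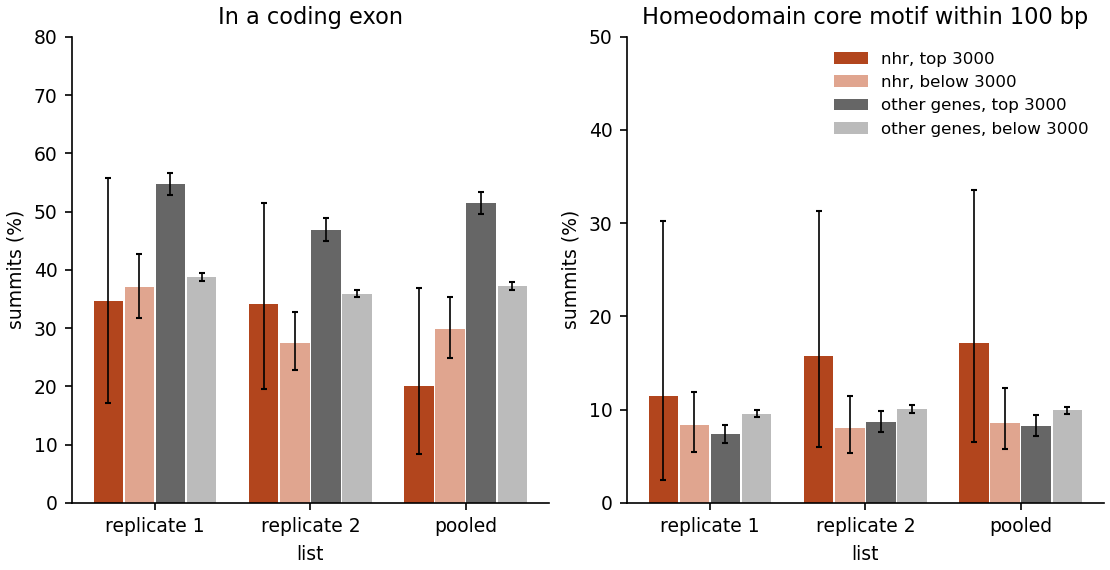
Percent of summits in a coding exon (left) and with the homeodomain core motif within 100 bp (right) in each list, for nhr and other genes, in the top 3000 and below it, with exact 95% intervals as error bars. The coding share of strong nhr summits in the pooled list, 20%, lies below that of other genes, 51.5%, and the nhr intervals for the motif are wide.

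Chromosome V carried 167 of the 269 nhr genes (62.1%) and 24.5% of the other genes. Genes on it had weaker ranks whether or not they were nhr genes: the median pooled rank there was 13063 for nhr genes and 11707 for others, against 6480.5 and 8954 on the other chromosomes. A top 3000 pooled rank was found for 11 of the 167 (6.59%, interval 3.33 to 11.5%), beside 9.05% of other genes on V. At the rate of other genes of the same chromosome, the family would have had 12.4 genes with a top 3000 rank in both replicates, where 8 were found, and 139 with a summit in both, where 145 were found. For the top 3000 of the single lists, that rate gave 31.2 in replicate 1, 31.8 in replicate 2 and 31.2 in the pooled list, where 22, 38 and 33 were found.

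Off chromosome V the numbers of genes were small. On IV, 10 of 33 nhr genes had a top 3000 pooled rank (30.3%, interval 15.6 to 48.7%), against 17.4% of other genes there. The share on IV was 21.2% in replicate 1 and 18.2% in replicate 2, where other genes had 16.8% and 16.4%. On X, 6 of 23 had a top 3000 pooled rank (26.1%, interval 10.2 to 48.4%), against 9.68%. The share on X was 21.7% in replicate 2 but 8.70% in replicate 1, where other genes had 10.2%. On II, 2 of 15 had a top 3000 pooled rank (interval 1.66 to 40.5%), against 10.7% of other genes there. On III, 2 of 8 had one (interval 3.19 to 65.1%), against 21.3%. On I, 2 of 23 had a top 3000 pooled rank (8.70%, against 21.1%), and 8 of 23 had a summit in both replicates (34.8%, against 65.2%).

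**Figure D4:**
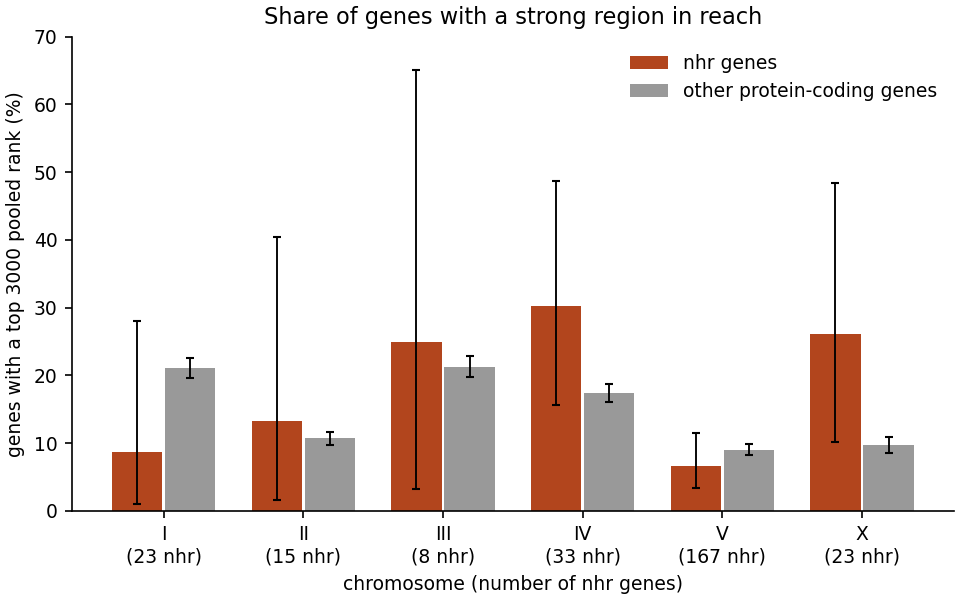
Percent of nhr and other protein-coding genes with a best pooled rank in the top 3000, by chromosome, with exact 95% intervals as error bars and the number of nhr genes under each. Chromosome V, with 167 members, has 6.59% for nhr genes, and the intervals of chromosomes with few members are wide.

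Of the 10 strong members on IV, 4 lay within 31407 bp, at chrIV:1613892-1645298. This cluster holds nhr-122, nhr-92, nhr-87, nhr-146 and nhr-274. The pooled ranks were 2222 for nhr-122, 310 for nhr-87, 2041 for nhr-146 and 2235 for nhr-274, and nhr-92 had no summit in the pooled list. Only nhr-87 had a top 3000 rank in both replicates. None of the 5 other protein-coding genes within 20 kb of nhr-87 had a top 3000 pooled rank. Among all other genes on IV 17.4% had one, so 5 genes are too few to show a difference. The cluster was chosen after seeing these ranks.

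Length and neighbours went with the ranks. The sequence searched was 3809 bp in the median nhr gene and 3520.5 bp in the median other gene. Of the 87 nhr genes with more than 4417 bp searched, 18 had a top 3000 pooled rank (20.7%, against 23.8% of other genes of that length). Among the 159 with 2958 to 4417 bp it was 15 (9.43%, against 11.1%), and among the 23 shorter ones 0 (against 7.71%). A longer gene has more chances of a summit. The longest stretch searched belongs to nhr-27, with 28 pooled summits, of which the best had rank 3743. A top 3000 pooled rank was found for 11 of the 142 members with another nhr gene within 5 kb (7.75%). Among the 127 with none it was 22 (17.3%), beside 14.2% of all other protein-coding genes. Of the former 112 and of the latter 55 lie on V, and the median sequence searched was 3659 and 4324 bp. Clustering, chromosome and length are therefore mixed.

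**Figure D5:**
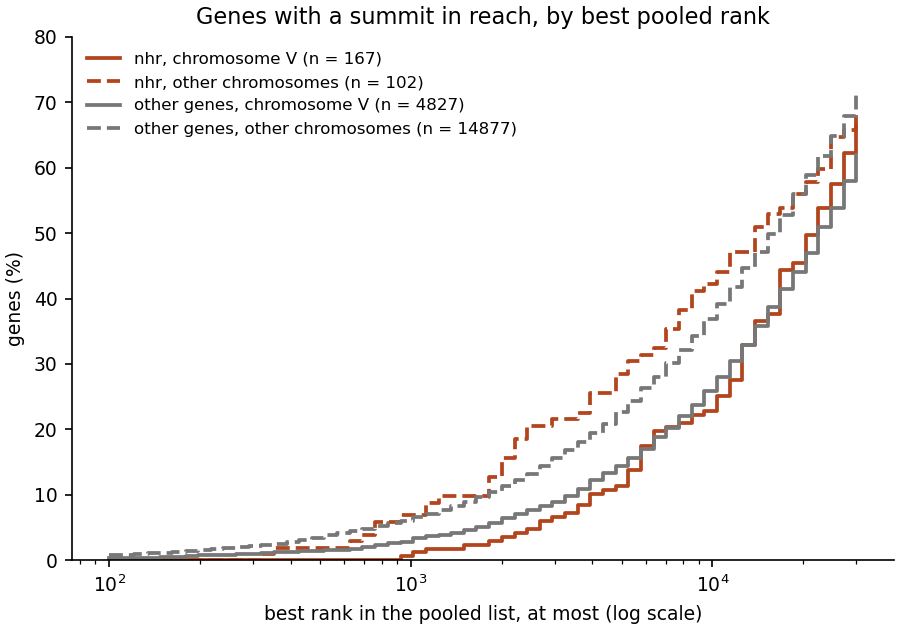
Percent of genes whose best pooled rank is within a given rank (log axis, from rank 100), for nhr and other genes, on chromosome V and elsewhere. The nhr curve on V stays low at strong ranks, with 6.59% at rank 3000, and genes with no summit keep all curves below 100%.

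Members with counterparts in other animals were read as a chosen list of 13, the conserved nuclear receptors, whose completeness was not checked. Of these, 12 had a summit in both replicates, 4 a top 3000 pooled rank, and 1, nhr-49, a top 3000 rank in both. Among all other protein-coding genes these shares were 56.1%, 14.2% and 5.99%, and among those with more than 4417 bp searched 79.6% had a summit in both and 23.8% a top 3000 pooled rank. Their median pooled rank was 4461, beside 10839 for all nhr genes with a summit, and the median sequence searched was 6972 bp. After nhr-49 at 604, the pooled ranks were 1826 for nhr-64, also HNF4-like, 2055 for nhr-41, the counterpart of the vertebrate testicular receptors, and 2913 for nhr-48, related to the vitamin D receptor. The rank of nhr-41 was 192 in replicate 1, the strongest of any nhr gene there, and 8849 in replicate 2. The HNF4-like nhr-14 and nhr-69 had pooled ranks of 3574 and 13501. The lowest summits were those of nhr-8, related to fly DHR96, at 10385, nhr-91, the counterpart of the germ cell nuclear factor, at 13337, and nhr-69.

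Moulting, larval timing and development were represented by 7 members. None had a top 3000 pooled rank (14.2% of other genes did), and 6 had a summit in both replicates (56.1% of other genes did), with a median pooled rank of 4676. The median sequence searched was 6691 bp. Of other genes with more than 4417 bp searched, 23.8% had a top 3000 pooled rank and 79.6% a summit in both replicates. The ROR counterpart nhr-23, needed for moulting, had ranks of 4341, 3815 and 4375 in replicate 1, replicate 2 and the pooled list. Its partner in larval timing nhr-85, related to Rev-erb, had 4318, 14158 and 4891. The tailless counterpart nhr-67 had a pooled rank of 4461, nhr-6, of the NR4A class, 6522, nhr-25, the counterpart of fly FTZ-F1, 8378, and nhr-60 4356. The best pooled summit of nhr-60 also lies inside another coding gene, F57A10.4. The early embryonic gene nhr-2 had no summit in any list.

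Fat metabolism, fasting and diet were represented by 10 members, of which 8 had a summit in both replicates and 2 a top 3000 pooled rank, beside 56.1% and 14.2% of other genes. These were nhr-49 and nhr-114, a receptor that protects the germline on poor diets, with ranks of 2671, 14171 and 1757. The best pooled and replicate 1 summits of nhr-114 also lie inside another coding gene, Y45G5AM.9. Its best replicate summits were 2191 bp apart. The partners of nhr-49 in fat metabolism had pooled ranks of 5993 for nhr-66, 6086 for nhr-13 and 24794 for nhr-80. The propionate breakdown regulators nhr-10 and nhr-68 had 23768 and 12674, and nhr-62, which acts in dietary restriction, 6439. The gene nhr-76, which acts in fat loss under serotonin, had replicate ranks of 23269 and 16608 and no summit in the pooled list. The median of the 9 with a pooled summit was 6439. The median sequence searched of the 10 members was 5285.5 bp. Of other genes with more than 4417 bp searched, 79.6% had a summit in both replicates and 23.8% a top 3000 pooled rank. The larvae were starved, but without fed animals the ranks carry no comparison with feeding.

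Among 5 nuclear receptors without an nhr number, 2 had a top 3000 pooled rank, beside 14.2% of other genes. These were daf-12, the steroid receptor of dauer entry, with ranks of 3184, 4346 and 1551, and fax-1, which specifies interneurons, with 1242, 2554 and 2344. The sequence searched was 32468 bp for daf-12 and 4786 bp for fax-1. Of other genes with more than 4417 bp searched, 23.8% had a top 3000 pooled rank. The pooled ranks of sex-1, a receptor that counts X chromosomes, and odr-7, of olfactory neurons, were 7087 and 26575, and unc-55, of motor neurons, had a summit in replicate 2 alone, at 15093.

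Of 11 matched genes for cofactors, ligand synthesis and targets, 5 had a top 1000 pooled rank, beside 5.68% of other protein-coding genes. Like the role lists above, this list was chosen with earlier results of these data known, so its share does not measure an enrichment. The sequence searched was 20624 bp for lin-42, 20340 bp for din-1, 9817 bp for cbp-1, 6695 bp for mdt-15 and 4194 bp for cpt-5. The acetyltransferase gene cbp-1, a coactivator, had ranks of 45, 938 and 89, and mdt-15, the Mediator subunit that works with NHR-49, had 165, 3348 and 653. The others were cpt-5, a carnitine palmitoyltransferase gene, at 684, lin-42, a Period-related timing gene, at 709, and din-1, the corepressor of DAF-12, at 944. The remaining 6 were outside the top 3000: the hormone synthesis genes daf-9 and daf-36 at 7327 and 16281, the desaturase genes fat-6, fat-5 and fat-7 at 7431, 19270 and 22213, and acs-2, for fatty acid activation, at 10748.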

How the data were processed

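ChIP-seq of GFP-tagged ALR-1 in whole L1 larvae was available as region lists from 2 biological replicates of 1 group, numbered as in the labels. Column 7 of each list holds a signal value that the authors' peak caller gave to each region, made from the alignments and a control file per the deposited description files. The replicate lists came from single replicates, the pooled list from pooled alignments, and the IDR list from these. Regions of replicate 1 are all 344 bp wide, those of replicate 2 are 384 bp, and those of the other lists 364 bp. Coordinates are in ce11, per the labels. Names and settings of the aligner and peak caller, and the limit used for IDR, were not given in the sources used here. The labels list the antibody target as alr-1, while the sample description names an antibody against GFP. Depth is unknown.

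Summits were ranked by signal within each list and assigned to genes of the Ensembl release 115 annotation of WBcel235, the same assembly. Every region lay within the chromosome lengths. Named members are the 12 with the lowest value of the worse replicate rank, any other with a top 1000 pooled rank, up to 5 with a top 1000 rank in 1 replicate and the worst or no rank in the other, and the role lists. The members, the lists and the rule were chosen with earlier results of these data known. The splits by length, neighbours, chromosome, repeats, strong summits and the choice of sequences were made after seeing values.

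With 1 group, no test over samples was possible, and no p-value over genes was computed. Shares have exact Clopper-Pearson 95% intervals, which cover the counting of genes or regions only. The rank assignment was tested on simulated data. Alternatives covered the reach, shared summits, length, chromosome V, each replicate alone, the rank limit and, added after seeing the data, leaving out nhr-27 and pairing summits with the best-ranked partner within 200 bp. Python 3.11.15, numpy 2.4.6, pandas 2.3.3, scipy 1.17.1 and matplotlib 3.10.9 were used.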

Additional observations from a re-analysis of the deposited data

How the results depend on the processing

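The share of nhr genes with a summit in both replicate lists minus that of other genes was -2.24 percentage points, and this difference changed sign under 3 settings. It was 5.62 with only summits in reach of 1 protein-coding gene (41.6% against 36%), 1.39 on chromosome V (48.5% against 47.1%) and 0.535 with replicate 2 alone, and ranged from -1.50 to 0.535 when either replicate was left out. The count of 145 became 73 within 1500 bp upstream to 500 bp downstream of the 5′ end and 81 on chromosome V, and ranged from 182 to 186 with 1 replicate left out. In the 5′ end window the shares were 27.1% of nhr genes and 32.9% of other genes. That difference, -5.75 percentage points, was the most negative of the settings. The median pooled rank of 10839 became 13063 on chromosome V and 18546 with genes lacking a summit placed at the end of the list. The 8 genes with a top 3000 rank in both replicates became 1 in the 5′ end window, 4 with 2000 to 6000 bp searched, 2 on chromosome V, 5 where the nearest summits of the replicates had to lie within 200 bp (6 with any summit within 200 bp as the partner, a setting added after seeing the data), 2 for the top 1000 and 51 for the top 10000, and ranged from 22 to 38 in a single replicate. The 2.83 pooled summits per 10 kb became 1.98 with only summits in reach of 1 gene, a setting that removes summits by construction, and 2.84 without nhr-27. Counts also change by construction with 1 replicate left out, another rank limit, a shorter reach or fewer genes. The same holds for the median with genes lacking a summit placed last. The cause of the remaining changes was not tested. No paired analysis was possible because there was only 1 group. The lists are cut at 30000 regions, so ranks near their end carry little information.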
